A study of Drosophila melanogaster with 2 samples.

Results

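The genes described here encode nuclear subunits of the 5 oxidative phosphorylation complexes of Drosophila melanogaster. They are the 88 protein-coding genes, of 13945 on chromosomes X, 4 and the arms of 2 and 3, whose symbol begins with ND-, Sdh, UQCR, COX followed by a digit, or ATPsyn. By complex they comprise 40 genes of complex I, 8 of complex II, 9 of complex III, 16 of complex IV and 15 of complex V. Among them 24 are duplicates whose symbol ends in L or in L and a digit, and 64 carry no such suffix. One member, Sdhaf3, is an assembly factor of complex II rather than a subunit. Some nuclear subunit genes have other symbols, such as blw, levy, cype and RFeSP, and are described at the end. The rule used only symbols and position, and no measured value.

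The samples were 2 biological replicates of 1 group, so no comparison between conditions exists. Chromatin came from whole embryos of 0 to 24 h, male and female together, of a transgenic line in which the CG7556 protein carries a GFP tag on its C terminus, and it was precipitated with an anti-GFP antibody. Chromatin was sonicated to fragments of 200 to 800 bp. Protein without the tag is not detected by this antibody, the labels name no driver for the transgene, and the control was not analysed here.

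Each replicate and the pool of both were deposited as lists of about 30000 regions, peaks and background together, and 7184 pooled regions that passed the authors' reproducibility step form the optimal list. Each region has a summit, the position of its highest enrichment, and a signal, a value that the authors gave without its scale. Signal ran from 137 to 4859 in the optimal list and from 22.2 upward in the pooled list. No list holds read counts, so the depth is unknown. A gene is called bound below when it had an optimal summit at most 500 bp from an annotated start, and this says nothing about whether the gene responds. In whole embryos, strong enrichment in few cells and weak enrichment in many cannot be told apart.

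Oxidative phosphorylation moves electrons from NADH and succinate through complexes I to IV to oxygen, pumps protons across the inner mitochondrial membrane and lets them return through ATP synthase, complex V. A few subunits are encoded in mitochondrial DNA, while the genes described here are nuclear and have to be expressed in balance with them. Flies carry many duplicates of the nuclear subunit genes, and a large part of the L-suffixed copies is known to be expressed mainly in the testis. Expression was not measured here.

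The sequences under 6 of the 8 strongest member peaks show where the tagged protein lay relative to these genes. Each is the stretch without annotated exons around an optimal summit, at most 300 bases, from the RefSeq Release 6 genome, on the strand of the member gene and written 5′ to 3′, with the 11 bases centred on the summit in capitals. Those of ND-MWFE, the third in signal, and of COX7AL2, the fifth, are not shown. The last one is the 100 bases before the start of ND-24L, the duplicate of ND-24, where no list had a region, and it has no capitals.
ND-ASHI (chrX:6679234-6679533, minus strand, dm6): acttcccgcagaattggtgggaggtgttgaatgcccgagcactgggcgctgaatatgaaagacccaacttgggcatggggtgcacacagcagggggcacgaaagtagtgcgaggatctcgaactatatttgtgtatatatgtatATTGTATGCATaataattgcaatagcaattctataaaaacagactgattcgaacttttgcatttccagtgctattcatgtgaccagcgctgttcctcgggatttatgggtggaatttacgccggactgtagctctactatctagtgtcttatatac
ND-42 (chr3R:22027481-22027656, plus strand, dm6): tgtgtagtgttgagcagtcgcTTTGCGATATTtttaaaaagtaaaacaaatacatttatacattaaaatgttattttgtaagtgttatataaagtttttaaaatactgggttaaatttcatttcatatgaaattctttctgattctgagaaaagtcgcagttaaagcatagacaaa
ND-SGDH (chr3L:12138585-12138771, minus strand, dm6): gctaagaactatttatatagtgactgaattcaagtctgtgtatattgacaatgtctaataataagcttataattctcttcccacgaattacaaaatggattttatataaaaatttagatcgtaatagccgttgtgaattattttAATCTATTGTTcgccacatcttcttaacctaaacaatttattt
ND-24 (chrX:17632180-17632253, plus strand, dm6): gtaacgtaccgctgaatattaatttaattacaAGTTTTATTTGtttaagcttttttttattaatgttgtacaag
ND-51 (chr2L:6062758-6062988, minus strand, dm6): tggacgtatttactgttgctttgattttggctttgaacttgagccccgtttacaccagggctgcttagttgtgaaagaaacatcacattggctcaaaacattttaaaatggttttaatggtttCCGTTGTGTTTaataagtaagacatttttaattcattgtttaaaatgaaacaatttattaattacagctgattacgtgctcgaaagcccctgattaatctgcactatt
ATPsynE (chr3R:14326732-14326946, plus strand, dm6): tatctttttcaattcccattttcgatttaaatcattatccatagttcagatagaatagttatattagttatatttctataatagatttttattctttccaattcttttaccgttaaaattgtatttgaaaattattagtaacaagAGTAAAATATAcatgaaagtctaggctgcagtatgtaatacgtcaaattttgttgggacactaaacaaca
ND-24L (chr3L:17320812-17320911, minus strand, dm6): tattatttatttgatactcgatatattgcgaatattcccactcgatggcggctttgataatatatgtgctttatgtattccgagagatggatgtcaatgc
The stretches from ND-42, ND-SGDH, ND-24 and ATPsynE had a low GC content of 23.0 to 26.7%, that of ND-51 was 33.8%, and that of ND-ASHI was 44.3%. A TATAAA on either strand was present in those of ND-ASHI, ND-42 and ND-SGDH. ND-24L had a GC content of 35.0%.

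The subunit genes as a whole were bound about as often as any coding gene, but the L-suffixed duplicates were almost never bound. An optimal summit was found at 19 of 88 members (21.6%), beside 21.1% of all protein-coding genes. Of the genes without a suffix 18 of 64 were bound (28.1%), and of the duplicates 1 of 24 (4.17%). Among genes with no close coding neighbour transcribed away from them, these shares were nearer, 2 of 28 (7.14%) and 1 of 21 (4.76%). A pooled region of any strength was found at 47 members (53.4%), beside 42.1% of all coding genes. For this looser call the contrast within the members was wider, with 45 of 64 genes without a suffix (70.3%) and 2 of 24 duplicates (8.33%). Pooled regions that stayed below the optimal list were found at 28 members (31.8%) beside 21.0% of all coding genes, and 27 of these were genes without a suffix (42.2% of 64). No region in any of the 4 lists was found at 33 of 88 members, beside 6792 of all 13945 coding genes. Of the 33, 21 were duplicates and 12 were not. The 12 were ND-19, ND-39, ND-49, ND-AGGG, ND-B14, ND-B16.6, ND-MLRQ, UQCR-11, UQCR-6.4, COX4, COX8 and ATPsynbeta.

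**Figure D1:**
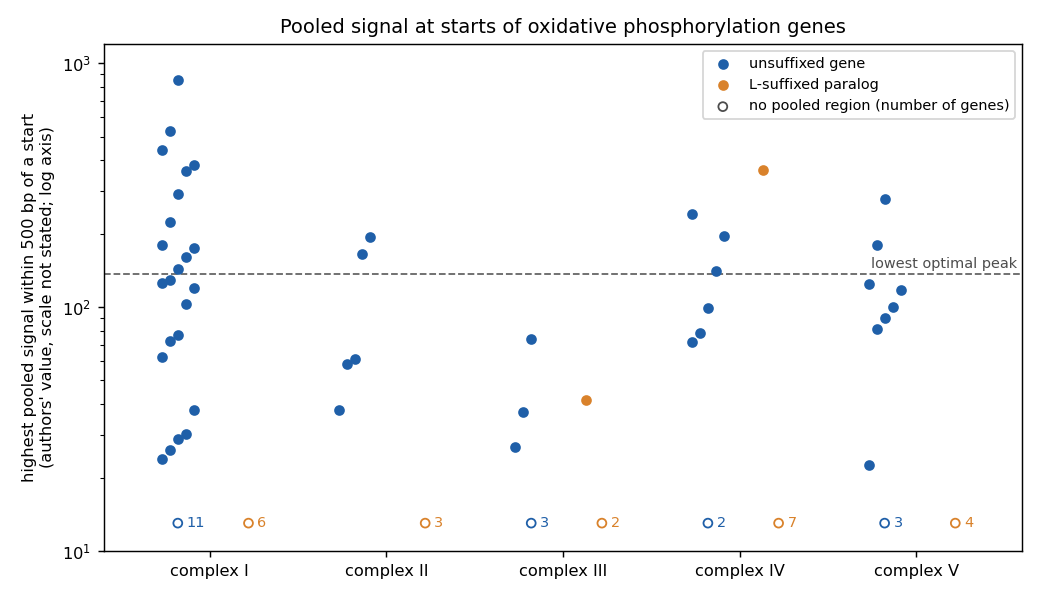
Highest pooled signal within 500 bp of a start for each member (log axis, the authors' scale), by complex, in blue for genes without a suffix and orange for L-suffixed duplicates; open circles give the number of genes with no pooled region. The dashed line is the lowest optimal signal, 137; 18 blue points and 1 orange point, COX7AL2 at 365, lie above it, and complex III has none above it.

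In complex I, the NADH dehydrogenase and the largest of the complexes, 11 of 40 genes were bound (27.5%, beside 21.1% of all coding genes), the strongest members among them. All 11 were among its 34 genes without a suffix (32.4%). The highest signal was at ND-ASHI, an accessory subunit of the membrane arm, with 858 in the optimal list, 367 in replicate 1 and 491 in replicate 2. Its rank was 453 of 7184 in the optimal list, 656 in replicate 1 and 333 in replicate 2. The call at ND-ASHI depends on the assignment, since it is lost with a window of 200 bp or when a summit counts only for the nearest start, here that of Fum1. ND-ASHI was the only member ahead of rank 1000 in both replicates, and in the optimal list as well. ND-42, an accessory subunit of the membrane arm, followed with 529.9 (274 in replicate 1 and 253 in replicate 2). ND-MWFE, a small membrane-arm subunit, had 441 (219 and 227). ND-SGDH, another small membrane-arm subunit, had 384 (210.1 and 178). Values of different lists are set side by side here only to show that the order held, since each list has its own scale.

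Of the 7 nuclear core subunits of complex I, most of which carry the flavin or iron-sulfur clusters, 4 were bound. The share over all coding genes was 21.1%, and this group was chosen after its values were seen. ND-24, an iron-sulfur subunit of the NADH-binding module, had an optimal signal of 362 (170.2 in replicate 1 and 186 in replicate 2). ND-51, the subunit that binds NADH and the flavin, had 290.1 (157 and 129). ND-23, which holds iron-sulfur clusters near the quinone site, had 223 (81.2 and 130.1). ND-30, the fourth bound core subunit, was weaker, with 175 (63.8 and 108). Both ND-23 and ND-30 ranked higher in replicate 2 (3306 and 4316) than in replicate 1 (6316 and 8268). The call at ND-30 is lost with a window of 200 bp or with the nearest start only, here that of CG15812. ND-75, which holds several of the iron-sulfur clusters, had a pooled signal of 28.7 and no region in replicate 1. ND-20, the subunit with the last cluster before quinone, had no pooled region but weak ones in the replicates (21.1 and 47.1). ND-49, which helps to form the quinone site, had none in any list.

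The other bound genes of complex I were accessory subunits with signals near the lower end of the optimal list. ND-MNLL had 179 (89.2 in replicate 1 and 90.1 in replicate 2), with similar ranks in the replicates (5666 and 5496). ND-B22 had 159.8 (58.3 and 97.7) and ND-B18 had 143 (82.9 and 63.4). The ranks of these last 2 genes differed in opposite directions, 9052 in replicate 1 and 4939 in replicate 2 for ND-B22, and 6188 and 8441 for ND-B18. The strongest regions below the optimal list included those of 4 further accessory subunits of complex I, ND-B17 with a pooled signal of 129.5 (53.1 in replicate 1 and 69.9 in replicate 2), ND-15 with 126 (61.3 and 68.9), ND-13B with 120.0 (65.6 and 60.7) and ND-PDSW with 103 (51.9, and no region in replicate 2). The other 8 genes of complex I with a region below the optimal list ranged from 23.8 (ND-18) to 76.7 (ND-ACP, the acyl carrier protein). None of the 6 duplicates of complex I had a pooled region.

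In complex II, succinate dehydrogenase, both membrane anchor subunits were bound and both catalytic subunits were not. This is 2 of its 8 members (25.0%) and 2 of 5 genes without a suffix (40.0%), beside 21.1% of all coding genes. Complexes with so few genes give only rough shares. SdhC had an optimal signal of 193 (114 in replicate 1 and 86.6 in replicate 2), and SdhD had 165 (72.2 and 84.8). SdhA, the flavoprotein, had only 38.0 in the pooled list (16.7 and 31.3), and SdhB, the iron-sulfur protein, had 61.2 (16.2 and 42.6). Sdhaf3, which helps the iron-sulfur subunit to mature, had 58.6 (32.4 and 29.3). All 5 genes without a suffix thus had a pooled region, and the duplicates SdhAL, SdhBL and SdhCL had none in any list.

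Complex III, the cytochrome bc1 complex, had no bound gene among its 9 members, beside 21.1% of all coding genes. UQCR-C2, a core protein, had the highest pooled signal with 73.7 (32.5 in replicate 1 and 48.3 in replicate 2). UQCR-Q, a small subunit, had 37.3 (26.8 and 23.1), and UQCR-14 had 26.8 (21.0 in replicate 2 only). The duplicate UQCR-6.4L had 41.4 (31.2 and 17.4), while its counterpart without a suffix, UQCR-6.4, had no region. Its summits in the replicates lay 413 bp upstream and 182 bp downstream of the start, so they do not mark the same position. The other core protein, UQCR-C1, had no pooled region and a weak one of 14.8 in replicate 1.

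Complex IV, cytochrome c oxidase, had 3 bound genes of 8 without a suffix (37.5%) and the only bound duplicate. Together these are 4 of its 16 members (25.0%), beside 21.1% of all coding genes. COX5A, a nuclear subunit on the matrix side, had an optimal signal of 239.9 (114 in replicate 1 and 119 in replicate 2). COX7B had 195 (98.7 and 99.3) and COX6B, a subunit on the side of cytochrome c, had 141 (62.8 and 76.4). COX6B was the bound member closest to the cutoff, at rank 6978 of 7184. The bound duplicate COX7AL2 had 365 (154 and 134), well above its counterpart COX7A, whose pooled signal was 78.4 (34.0 and 41.7). Its summit lay 459 bp downstream of the nearest start, within the 5′ UTR, the farthest of all bound members, and in the replicates it lay 432 and 317 bp downstream. With a window of 200 bp COX7AL2 was not bound, and no duplicate was. COX4, a large nuclear subunit, and COX8 had no region in any list.

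Complex V, ATP synthase, had 2 bound genes among its 15 members (13.3%), beside 21.1% of all coding genes. Both were among its 11 genes without a suffix (18.2%). Neither encodes a part of the catalytic head. The head gene blw, for the alpha subunit, is outside the symbol rule and was bound with a signal of 376. ATPsynE, the e subunit of the membrane part, had an optimal signal of 277 (140.1 in replicate 1 and 145 in replicate 2). ATPsynCF6, a subunit of the peripheral stalk, had 179 (96.8 and 82.8). Their ranks in replicates 1 and 2 were 3180 and 2838 for ATPsynE and 5118 and 6090 for ATPsynCF6. ATPsyngamma, the rotor shaft, lay just outside the optimal list with a pooled signal of 124 (58.9 and 60.5), and so did ATPsynF, another membrane subunit, with 117 (53.3 and 64.1). ATPsynB of the peripheral stalk had 99.8 (45.4 and 51.3), ATPsynC of the proton-driven ring 89.9 (37.9 and 47.6), ATPsynD 81.6 (32.0 and 29.8) and ATPsyndelta 22.6 (23.3 in replicate 2 only). These genes of the stalk, ring and rotor had weaker regions than both bound genes. ATPsynbeta, the catalytic subunit, had no region in any list. ATPsynbeta and ND-49 are the only members on chromosome 4, where 6.25% of all coding genes were bound.

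The difference between genes and their duplicates was also seen between matched pairs, most clearly for pooled regions of any strength. Of the duplicates, 20 have their counterpart among the members, and these counterparts are 18 genes. Of the 18 counterparts 4 were bound (22.2%, near the 21.1% of all coding genes), ND-24, ND-51, SdhC and ATPsynCF6, and 7 more had a weaker pooled region, COX5B (99.1), COX7A (78.4), ND-B14.5A (72.7), COX7C (72.1), SdhB (61.2), SdhA (38.0) and UQCR-14 (26.8). The remaining counterparts, ND-20, ND-49, UQCR-11, UQCR-6.4, COX4, ATPsynG and ATPsynbeta, had no pooled region. A pooled region was thus present at 11 of 18 counterparts (61.1%) and at 2 of their 20 duplicates (10.0%), beside 42.1% of all coding genes. Promoter arrangement was not matched in these pairs. A close coding neighbour transcribed away from the gene was present at 10 of 18 counterparts (55.6%), among them all 4 bound ones. It was present at 2 of the 20 duplicates (10.0%). The duplicates with a region were COX7AL2 and UQCR-6.4L, and beside them ND-B14.5AL had one region of 13.9, in replicate 1 only. The 46 genes that have no duplicate among the members were bound in 14 cases (30.4%).

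The bound members mostly shared their summit with a neighbouring gene that is transcribed away from them. Only the strongest optimal summit of each gene is described, although ND-42, ND-MWFE and ND-SGDH each had 2 within 500 bp of a start. Of the 19 summits, 16 (84.2%) also lay within 500 bp of a start of another coding gene, while 1591 of all 2939 bound coding genes (54.1%) shared one. The exceptions were ND-B22, SdhD and COX7AL2. In each of the 16 cases a partner gene lies on the opposite strand with a start less than 500 bp upstream of a member start, an arrangement called head-to-head here. The summit was upstream of the nearest annotated start of both genes in 14 cases and was not at COX5A and COX6B. Many of these genes have several starts, and a summit upstream of the nearest one can lie inside the gene, as at ND-24, Fum1 and TppII. It was nearer to the neighbour than to the member in 7 cases.

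Among the 6 strongest summits all but that of COX7AL2 were shared in this way. At ND-ASHI the summit was 266 bp upstream of the nearest start of the member and 256 bp upstream of one start of Fum1, which encodes fumarase of the citric acid cycle, and it lay in an intron of Fum1 transcripts from another start. At ND-42 it was 202 bp upstream of the member but only 27 bp upstream of Cchl, which encodes the lyase that attaches heme to cytochrome c. Both neighbours therefore encode mitochondrial enzymes linked to respiration. At ND-MWFE it was 191 bp from the member and 30 bp from a start of TppII, a tripeptidyl peptidase gene in whose intron it lay, and at ND-SGDH it was 38 bp from the member and 246 bp from RhoGAP68F, the gene of a GTPase-activating protein. At ND-24 it was 104 bp from the member and 170 bp from corolla, which encodes a protein of the synaptonemal complex. The remaining neighbours have varied roles: spn-E (ND-23) encodes a helicase of the piRNA pathway, Sec3 (COX7B) an exocyst subunit, Sec13 (ATPsynCF6) a coat protein of transport vesicles, p115 (ND-MNLL) a tethering factor of the Golgi, hiw (ND-B18) a ubiquitin ligase, glo (COX5A) an RNA-binding protein and Rpp20 (COX6B) a subunit of RNase P. Tctp (SdhC), Afti (ATPsynE), CG13994 (ND-51) and CG15812 (ND-30) were the others. Which gene of a pair the signal belongs to cannot be told apart from a single summit. COX6B and ND-MNLL each also share a start position with another coding gene, CG18809 and CG45089. No pair of members lay within 500 bp of each other, so no summit was counted for more than 1 member.

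The head-to-head arrangement is common among these genes, and bound genes were frequent in it across the genome. It was present at 36 of 64 members without a suffix (56.2%), at 3 of 24 duplicates (12.5%) and at 27.4% of all coding genes. Of the 36, 16 were bound (44.4%), beside 38.3% of all coding genes with such a neighbour. Of the 28 without such a neighbour 2 were bound (7.14%), beside 14.6% of all coding genes without one. The share of bound genes among the head-to-head members was thus near that of all head-to-head genes. In the lists of single replicates, the strongest 7184 regions gave 14 of the 36 in replicate 1 (38.9%, beside 40.0% of all head-to-head genes) and 15 in replicate 2 (41.7% beside 39.5%). Of the 28 they gave 0 in replicate 1, beside 14.0% of all coding genes without such a neighbour, and 2 in replicate 2 (7.14% beside 15.2%). The 3 duplicates with a head-to-head neighbour, COX7AL, ATPsynbetaL and ATPsynepsilonL, had no region in any list. Of the 21 duplicates without such a neighbour 1 was bound (4.76%), near the 7.14% of members without a suffix. A pooled region of any strength was present at 2 of these 21 (9.52%).

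Weak regions followed another pattern. A pooled region of any strength was present at 25 of the 36 head-to-head genes without a suffix (69.4%) and at 20 of the 28 others (71.4%). Over all coding genes the shares were 62.0% and 34.6%. Of the 28 genes without a head-to-head neighbour 18 (64.3%) had a pooled region that was not an optimal peak, while 20.0% of all coding genes without such a neighbour did. These were weak regions: over all 28 members with only such a region the pooled signal ran from 22.6 to 129.5 with a median of 72.4. Background regions are part of the pooled list by the authors' design, and how many of these are background was not tested.

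**Figure D2:**
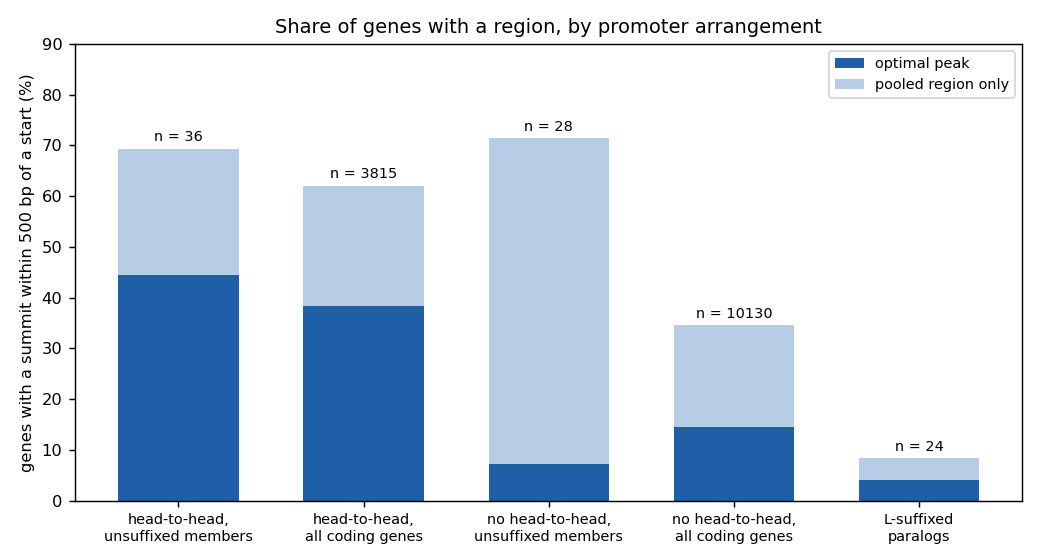
Percentage of genes with an optimal peak (dark) and with only a weaker pooled region (light) within 500 bp of a start, for members without a suffix and all coding genes, with and without a head-to-head coding neighbour, and for the 24 duplicates. The dark bars of the members are 44.4% and 7.14%, and the full bars 69.4% and 71.4%.

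The distance between the starts of a head-to-head pair also went with binding. Among the 36 members the median gap was 232 bp in the 16 bound pairs (20 to 413 bp) and 123 bp in the 20 others (21 to 426 bp). With a gap of 200 to 500 bp 12 of 20 were bound (60.0%), beside 45.9% of all coding genes in that range. With a gap under 200 bp 4 of 16 were bound (25.0%), beside 26.6% of all coding genes. The narrow range included ND-15, whose start lies 30 bp from that of Pus10, and ND-PDSW, 45 bp from msl-2, both with a pooled region below the optimal list. The wide range included ND-39 (426 bp from ZnT77C), COX8 (415 bp from VhaM9.7-b) and ND-49 (201 bp from Ephrin), all with no pooled region.

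In signal, the bound members lay slightly below the middle of the optimal list. Their median optimal signal was 223, beside a median of 244 over all peaks of the list. Over all bound coding genes, each with its strongest summit, the median was 301 and the quartiles were 198 and 529. Of the 19, 8 were among the 3592 strongest peaks of the list, and the median rank was 4087. Of their summits 11 lay between genes, 4 in introns (of ND-24, COX5A, Fum1 and TppII) and 4 in 5′ UTRs (of ND-B18, ND-B22, COX6B and COX7AL2). The closest summit was 10 bp upstream of the start of SdhD. Measured from the nearest annotated start, 16 of the 19 lay upstream, but those of ND-24, ND-B18 and ND-B22 also lay inside their own gene, downstream of another of its starts. By chromosome arm, bound members were 7 of 20 on 3R (35.0%, beside 21.9% of all coding genes there), 5 of 13 on X (38.5% beside 21.9%), 3 of 16 on 2L (18.8% beside 20.0%), 3 of 20 on 3L (15.0% beside 22.4%) and 1 of 17, ND-MWFE, on 2R (5.88% beside 19.6%). On arms with so few members, 1 gene moves a share by several points.

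All 19 bound members had a region in both replicate lists, in a similar order. Presence in both is favoured by the reproducibility step that made the optimal list. Among the 7184 strongest regions of each replicate, 15 of the 19 were present in replicate 1 and 18 in replicate 2. Of all 88 members, 17.0% and 20.5% had a summit among those regions, beside 21.1% and 21.9% of all coding genes. The bound members beyond rank 7184 were COX6B, ND-30, ND-B22 and SdhD in replicate 1 and ND-B18 in replicate 2. These 5 had the lowest optimal signals of the 19. The ranks of the 19 in the replicates had a Spearman rho of 0.80, a description of 19 genes measured in the same chromatin samples, chosen for being high in the pool of both. The replicate summits were a median of 21 bp apart and within 50 bp of each other at 14 genes, with the widest distances at ATPsynE (133 bp), COX7AL2 (115 bp) and COX6B (108 bp).

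**Figure D3:**
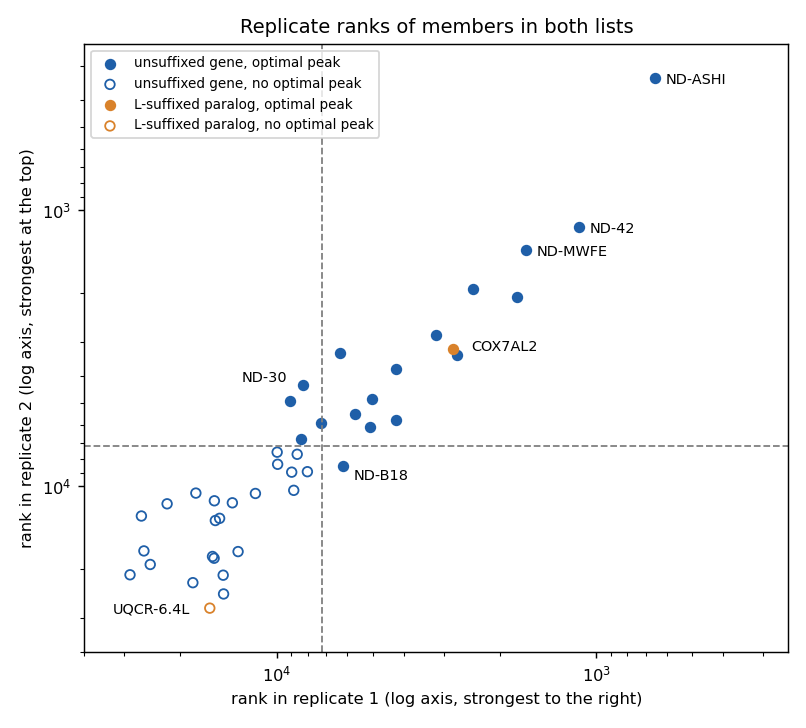
Rank of the strongest region at each of the 43 members present in both replicate lists, replicate 1 against replicate 2 (log axes, strongest at the upper right); filled points are the 19 bound members, open points the others, and dashed lines mark rank 7184. ND-ASHI leads in both replicates, and ND-B18 is the only bound member below the line of replicate 2.

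Letters of known core promoter elements were searched in the promoters of the subunit genes. In the window from 250 bases before to 50 after the 5′-most start, on either strand, GGTCACAC, a part of core promoter motif 1, was found in 15 of 64 members without a suffix (23.4%), in 1 of 24 duplicates, COX7AL, and in 7.70% of all coding genes. Of the bound members 3 of 19 had it (ND-MWFE, COX5A and COX7B, 15.8%), and of the genes without a suffix that were not bound 12 of 46 (26.1%), beside 10.3% of all bound coding genes. TATCGATA, the site of the transcription factor Dref, was in 9 of 64 members without a suffix (14.1%), in no duplicate and in 9.36% of all coding genes. It was in 10.5% of the bound members and 10.1% of the members not bound. Of the genes without a suffix that were not bound 15.2% had it, and of all bound coding genes 13.2%. TATAAA was in 62.5% of the genes without a suffix, 37.5% of the duplicates and 45.8% of all. It was in 63.2% of the bound members and 53.6% of those not bound. Among the genes without a suffix that were not bound the share was 60.9%, near that of the bound members, and among all bound coding genes 46.4%. The window has a low GC content in the members, with a median of 34.2% beside 38.0% over all coding genes, which bears on every AT-rich pattern.

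Sites of factors linked to respiratory genes or growth were rare in these windows. GCGCATGC, the core of the site of ewg, the fly counterpart of NRF1, was in none of the 88 and in 1.05% of all coding genes. The nuclear respiratory gene element, a longer pattern searched on both strands, was in none of the 88 and in 0.158% of all. CACGTG, the E-box of Myc, was in 4 of 88 (4.55%) beside 4.20% of all. GAGAGAG, the site of the GAGA factor Trl, was in 1 of 88, COX7AL2, beside 5.87% of all. Each match describes letters only. In the 200 bases around the optimal summits of the 19, TATAAA was present in 11 (57.9%), beside 40.1% of all 7184 optimal summits, and TATCGATA in 1, ND-MNLL, beside 2.00%.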

How the data were processed

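Chromatin immunoprecipitation followed by sequencing was deposited for 2 biological replicates, numbered in the labels. Per the description files deposited by the authors, regions (peaks and background) were derived from the alignments of each replicate, and of both pooled, with a control, and the optimal list holds the peaks that passed thresholding on the irreproducible discovery rate. The sources used here name no aligner, caller or threshold. The signal values deposited by the authors have no stated scale and were used only to rank and describe regions within a list. The lists hold no read counts, so depth is unknown, and no interval that needs it is given.

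The dm6 lists were used, restricted to X, 4 and the arms of chromosomes 2 and 3. The summit was the region start plus the deposited summit offset, as a 1-based position. Genes and transcript starts came from Ensembl release 115 (BDGP 6.54) without transposable elements and pseudogenes, and sequence from RefSeq Release 6. All 88 members had the same start and end in RefSeq, and all 97182 regions of the 4 lists ended within the reference. A summit counted for every gene with a start within 500 bp. Assignment was tested on simulated data. Python 3.11.15, numpy 2.4.6 and pandas 2.3.3 were used.

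The members and lists were chosen with earlier results of these data known. With 1 group no test was run: counts stand beside those of all coding genes. Genes named are the bound members and the genes sharing their summits, the 6 strongest members below the optimal list, duplicates with a pooled region, the counterparts of duplicates, complex II, at most 4 bound genes of each further list, and genes on which a small count falls. Other members named for contrast within a complex, such as the core subunits of complex I and those with no region, were chosen after their values were seen. Alternatives tried were single replicates, the upper 3592 optimal peaks, windows of 200 and 1000 bp, the 5′-most start, the nearest start only, region overlap, members close together counted once and any pooled region. After the data were seen, a head-to-head definition of 1000 bp and a summit without the shift to 1-based positions were added, as was the head-to-head count itself.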

Additional observations from a re-analysis of the deposited data

How the results depend on the processing

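Of 50 alternative values, 37 stayed within 1.5 times the reported count (or, for the median signal, within the spread between replicates) and 13 moved. Without 1 replicate the bound members numbered 15 to 18 instead of 19, the genes without a suffix 14 to 17, the shared summits 14 to 15, the head-to-head genes 14 to 15, and the duplicates stayed at 1. The median signal was 124 to 140.1 in single replicates against 223, on the scale of those lists. Among the 3592 strongest optimal peaks 8 members were bound, 7 without a suffix, 7 sharing a summit and 7 head-to-head, and their median signal was 374; fewer peaks enter by construction. With a window of 200 bp no duplicate was bound (0), 10 summits were shared and the median signal was 209, with 16 members bound after the loss of COX7AL2, ND-30 and ND-ASHI. With 1000 bp 2 duplicates were bound and the median signal was 204, with 22 members bound, adding ND-39, UQCR-14 and UQCR-6.4L. Counting any pooled region gave 47 members. Assigning each summit to the nearest start only left 14 members and took away ATPsynCF6, COX5A, ND-30, ND-ASHI and ND-MNLL. ND-42 and ND-MWFE, with 2 optimal summits each, stayed although the stronger summit was nearest to Cchl or TppII. ND-42 also stayed with a window of 200 bp although its stronger summit lay 202 bp away. With head-to-head neighbours within 1000 bp, 16 of 40 members without a suffix were bound (40.0%, beside 35.2% of all coding genes) and 2 of 24 others (8.33% beside 13.1%). Assignment by nearest start, region overlap, joint counting and any pooled region give no value for the median signal or the shared summits. No paired analysis was possible because there is only 1 group. Depth is unknown, so a member without a region may be below detection rather than free of the tagged protein.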

Other observations

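Respiratory genes that the symbols of the rule do not capture were bound in 5 of 9 matched cases (55.6%, beside 21.1% of all coding genes), and 2 of the 9 have a head-to-head neighbour. The strongest was Cyt-c-d, a cytochrome c gene, with an optimal signal of 1614 (865 in replicate 1 and 759 in replicate 2) and a summit 395 bp downstream of its start, where CG31808 has the nearest start. The ATP synthase gene blw, which encodes the alpha subunit of the catalytic head, had 376 (199 and 181). Of the complex IV genes, levy had 296 (157 and 132) with wmd as the nearest gene, and cype had 172 (103 and 82.5) with Ncoa6 as the nearest. Cyt-c-p, the main somatic cytochrome c gene, followed with 169.6 (85.6 and 96.5). RFeSP and ox, both of complex III, had pooled signals of 93.5 and 90.1, sun had 22.6, and Cyt-c1 had no pooled region. With these 3 genes of complex III added to its 9 members, that complex still had no bound gene.

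Further groups of genes act around the respiratory chain. Of 14 matched assembly factors 4 were bound (28.6%), CIA30 with 1124 (567 in replicate 1 and 556 in replicate 2, with CG7601 as the nearest gene), Cox17, a copper chaperone, with 557 (339 and 226), Ttc19 with 481 (229.8 and 249) and Coa8 with 159 (86.9 and 70.1). Of 23 listed assembly factors 9 had no matching symbol. Of 20 citric acid cycle and pyruvate dehydrogenase genes 6 were bound (30.0%). The strongest were Idh3g, a subunit of isocitrate dehydrogenase, with 1169.5 (587 and 581), Fum1 with the 858 it shares with ND-ASHI, mAcon1, an aconitase, with 405 (212 and 192), and Pdhb with 376 (210.1 and 164). Of 17 genes for mitochondrial DNA maintenance and nuclear control of respiratory genes 3 were bound (17.6%), Dref with 521 (202 and 307), mtSSB, which binds single-stranded mitochondrial DNA, with 272 (136 and 140.1) and mTerf5 with 167 (90.2 and 77.1). The background for these counts is the 21.1% of all coding genes. A head-to-head neighbour was present at 8 of the 14 assembly factors, 9 of the 20 citric acid cycle genes and 10 of the 17 regulators, beside 27.4% of all coding genes.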
